A study of Homo sapiens with 9 samples.

Results

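The Hippo pathway and its effector YAP were followed here through the mRNA of 10 genes, taken as the rows of a gene count table whose Ensembl identifiers belong to YAP1, WWTR1, TEAD1, TEAD4, LATS1, LATS2, CCN1, CCN2, AMOTL2 and AJUBA. They were 10 of 61487 rows, and all 10 were among the 14630 genes with enough counts to be tested. RNA was sequenced from the human high-grade serous ovarian cancer line OVCAR4, an established culture line, in 3 groups of 3 libraries. All groups are labelled WT in genotype, and naive and Pt-resistant cells received DMSO. The remaining group was Pt-resistant cells given 5 µM EPZ015666, a small-molecule inhibitor of the arginine methyltransferase PRMT5, for 5 days. Per the study's methods, the Pt-resistant derivative came from continuous exposure of OVCAR4 to cisplatin, so it stands for 1 selected population. The replicates were wells seeded in parallel, and p-values therefore measure the spread between wells.

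In the Hippo pathway, a kinase cascade ending in LATS1 and LATS2 phosphorylates the coactivators YAP (YAP1) and TAZ (WWTR1), which keeps them out of the nucleus or marks them for degradation. Unphosphorylated YAP and TAZ enter the nucleus and bind the TEAD transcription factors, which switch on genes such as CCN1, CCN2, ANKRD1 and AMOTL2. Most of this control acts on proteins and their location, which mRNA levels do not show.

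Levels are given as CPM, a gene's count relative to the TMM-scaled total of its library, and differences as log2 fold changes from edgeR's quasi-likelihood test, fitted on all tested genes and called at a Benjamini-Hochberg adjusted p under 0.05. Total counts ran from 14320929 to 19114811 per library. PRMT5 mRNA did not pass in either comparison (log2 fold changes of -0.05 and -0.01, adjusted p = 0.625 and 0.959). Of 8 serous and epithelial markers, 7 were above 1 CPM in each group, while WT1 stood below 0.5 CPM in every library. Their summed level was 4003 to 4279 CPM in the naive, 3935 to 4045 CPM in the Pt-resistant and 3222 to 3293 CPM in the treated libraries. The markers in it did not move together. KRT7, the largest, had means of 1929, 2333 and 1638 CPM in that order, and EPCAM had 519, 330 and 247 CPM. Of the 7 tested, 1 was called higher and 4 lower in Pt-resistant than naive cells, beside 29.8% and 29.4% of all tested genes. The sum of 7 fibroblast and endothelial markers was 143 to 161, 127 to 133 and 94.1 to 109 CPM in naive, Pt-resistant and treated libraries. It was mostly PECAM1 and CDH5, with DCN and PDGFRA at or near 0. In that order PECAM1 had means of 95.4, 57.4 and 43.7 CPM, and CDH5 had 48.4, 67.9 and 46.7 CPM. The sum of 6 immune markers was 1.42 to 2.14, 0.421 to 0.675 and 4.77 to 6.35 CPM. The RNA came from a culture line, so these sums are levels of marker mRNA, and no cell types were counted. They moved with the groups, and their part in the results below was not tested. Fewer cells with a marker cannot be told apart from less of its RNA per cell.

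Of the 10 genes, 2 rose and 3 fell in Pt-resistant relative to naive cells, where 59.1% of all tested genes were called (29.8% up and 29.4% down). With EPZ015666, 4 rose and 2 fell relative to Pt-resistant cells under DMSO, where 62.4% of all tested genes were called (31.9% up and 30.5% down). Between treated and naive cells, 5 rose and 3 fell, beside 63.4% of all tested genes (32.2% up and 31.2% down). The shares of the 10 genes that were called thus lay near those of all genes in the first and second of these comparisons. The ranges of the groups did not overlap for 5, 7 and 6 of the 10 genes in that order, beside 62.5%, 66.5% and 66.4% of all tested genes. A called change of at least 2-fold was found for 0, 2 and 1 of them, beside 15.9%, 17.9% and 19.8%. Their median log2 fold changes were -0.22, 0.08 and 0.23 in that order, beside 0.01, 0.01 and 0.00 over all tested genes. The last comparison shares its libraries with the others, so its values place the treated cells and are not independent of the other values. The first and second comparisons share the Pt-resistant libraries, so their values are not independent of each other either. Among all tested genes called lower in Pt-resistant cells, 2254 rose with EPZ015666, 675 fell and 1365 were not called. Among those called higher, 824 rose, 2145 fell and 1388 were not called.

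**Figure D1:**
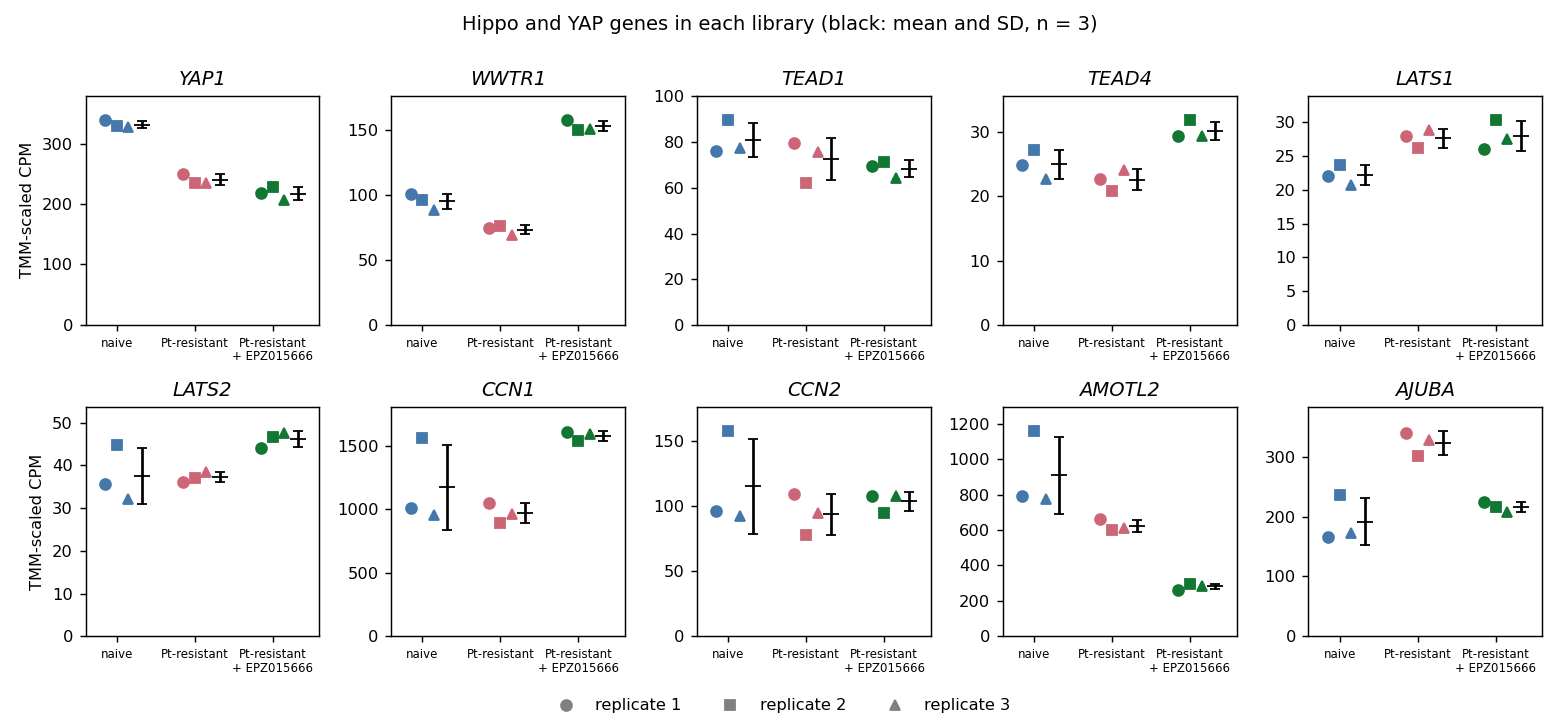
TMM-scaled CPM of each of the 10 genes (y axes from 0, own scale per gene) in the 9 libraries, with markers for the replicate number and a black mean and SD per group (n = 3). WWTR1 was highest and AMOTL2 lowest in the 3 treated libraries, and naive replicate 2 lay above the other naive libraries for CCN1, CCN2, AMOTL2 and AJUBA.

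The mRNAs of the 2 coactivators both fell in Pt-resistant cells, and with the inhibitor WWTR1 rose while YAP1 did not pass. YAP1, which encodes YAP, stood at 339, 329 and 327 CPM in the naive, at 250.2, 235 and 234 CPM in the Pt-resistant and at 217, 227 and 206 CPM in the treated libraries. All 3 naive libraries were above all others, and the treated libraries lay just below the Pt-resistant ones. In Pt-resistant cells YAP1 fell by 0.47 ± 0.07 on the log2 scale (SE, n = 3 per group; 1.38-fold), with an adjusted p of 7.38e-06. The further difference with EPZ015666, -0.15 ± 0.07, did not pass (adjusted p = 0.0864; 95% interval -0.30 to 0.01), though it did with scaling by library size alone (-0.18, adjusted p = 0.0386).

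WWTR1, the gene of the YAP paralog TAZ, stood at 100.5, 95.7 and 88.6 CPM in naive and at 74.4, 75.9 and 69.4 CPM in Pt-resistant libraries. In treated libraries it reached 157, 150.1 and 150.8 CPM, above every other library. In Pt-resistant cells it fell by 0.37 ± 0.08 on the log2 scale (adjusted p = 2.01e-04) and rose 2.09-fold with the inhibitor (log2 fold change 1.06 ± 0.08, adjusted p = 3.43e-11). Against naive cells, treated cells were 1.61-fold higher in WWTR1 and 1.53-fold lower in YAP1 (log2 fold changes 0.69 and -0.61). Neither value changed its call under any alternative tried.

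Per kilobase of exon, the scale on which different genes can be compared, YAP1 was the more abundant of the pair in every library. YAP1 was at 52.6 ± 1.02 CPM per kilobase in naive, 38.1 ± 1.41 in Pt-resistant and 34.5 ± 1.68 in treated cells (SD, n = 3), and WWTR1 at 11.3 ± 0.71, 8.71 ± 0.406 and 18.2 ± 0.477. The ratio of YAP1 to WWTR1 was 4.50 to 4.92 in naive, 4.14 to 4.51 in Pt-resistant and 1.83 to 2.02 in treated libraries. The naive and Pt-resistant ranges of that ratio overlapped slightly, and the treated range lay below both. With 3 libraries a side, the smallest p that an exact two-sided permutation test allows is 0.1, which the treated group reached against each of the others (0.113 after adjustment over 9 such comparisons). The sum of both genes was 63.9 ± 1.68 CPM per kilobase in the naive, 46.8 ± 1.60 in the Pt-resistant and 52.6 ± 1.73 in the treated group. Each pair of groups had p = 0.1 by the same exact test (0.113 after adjustment).

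The TEAD factors are the DNA-binding partners of both coactivators. TEAD1 stood at 76.2, 89.6 and 77.4 CPM in the naive, 79.5, 62.2 and 75.8 CPM in the Pt-resistant and 69.5, 71.5 and 64.2 CPM in the treated libraries. Neighbouring groups overlapped, and neither difference passed (log2 fold changes -0.16, 95% interval -0.35 to 0.03, and -0.09, 95% interval -0.28 to 0.11). Without Pt-resistant replicate 1 the first of these passed (-0.24, adjusted p = 0.038). Treated cells were lower than naive ones by -0.25 ± 0.09 (adjusted p = 0.024), a call lost without naive replicate 2 (adjusted p = 0.119) or treated replicate 3 (adjusted p = 0.113).

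TEAD4 stood at 24.9, 27.2 and 22.7 CPM in the naive, 22.7, 20.9 and 24.1 CPM in the Pt-resistant and 29.4, 31.8 and 29.3 CPM in the treated libraries. The treated libraries lay above all 6 others, which overlapped. TEAD4 rose with EPZ015666 by 0.42 ± 0.10 on the log2 scale (adjusted p = 5.47e-04), while Pt-resistant and naive cells did not differ past the threshold (-0.14, 95% interval -0.34 to 0.06). The excess over naive cells, 0.28 (adjusted p = 0.015), was lost with scaling by library size alone (0.21, adjusted p = 0.06) and without naive replicate 3 or treated replicate 2.

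The other 2 TEAD genes, which were not among the 10, supply the larger share of TEAD mRNA per kilobase. TEAD2 fell from 29.6 ± 2.51 to 17.7 ± 0.612 CPM per kilobase in Pt-resistant cells and was at 23.4 ± 0.438 in treated cells. TEAD2 fell by 0.74 on the log2 scale and then rose by 0.40 with EPZ015666 (adjusted p = 3.13e-08 and 1.34e-04). TEAD3 fell by 0.50 in Pt-resistant cells (adjusted p = 1.11e-04) and did not pass with the inhibitor (-0.05, adjusted p = 0.709). Summed over TEAD1 to TEAD4, the level per kilobase was 61.6 ± 0.558 in naive, 44.0 ± 2.98 in Pt-resistant and 52.4 ± 0.649 in treated cells. No groups overlapped, and each pair had p = 0.1 by the exact permutation test, its smallest possible value (0.113 after adjustment).

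LATS1 and LATS2 encode the kinases at the end of the cascade. LATS1 stood at 22.0, 23.7 and 20.7 CPM in the naive, 27.9, 26.1 and 28.8 CPM in the Pt-resistant and 26.1, 30.3 and 27.5 CPM in the treated libraries. The naive libraries were below all others, and the Pt-resistant and treated ones overlapped. LATS1 rose by 0.32 ± 0.09 in Pt-resistant cells (1.25-fold, adjusted p = 0.00576) and the difference with the inhibitor was 0.02 (95% interval -0.18 to 0.21).

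LATS2 stood at 35.6, 44.7 and 32.2 CPM in the naive, 36.1, 37.2 and 38.5 CPM in the Pt-resistant and 44.0, 46.8 and 47.6 CPM in the treated libraries. The Pt-resistant values lay within the naive range, and naive replicate 2 reached the treated range. LATS2 rose 1.24-fold with EPZ015666 (log2 fold change 0.31 ± 0.10, adjusted p = 0.00922), and the difference between Pt-resistant and naive cells was -0.01 (95% interval -0.21 to 0.20), or 0.13 without naive replicate 2. Treated cells exceeded naive ones by 0.30 (adjusted p = 0.0109), or 0.44 without naive replicate 2, and the call was lost without naive replicate 3 (0.20, adjusted p = 0.101).

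The target genes carry a further caution in the naive group. Naive replicate 2 exceeded the mean of the other 2 naive libraries 1.67-fold in CCN2, 1.59-fold in CCN1, 1.48-fold in AMOTL2, 1.40-fold in AJUBA and 1.32-fold in LATS2, while YAP1 and WWTR1 stood at 0.988 and 1.01 times that mean. Of the 10 genes, 5 (50%) were more than 1.2-fold above the other 2 libraries of the group in naive replicate 2, beside 13.8% of all tested genes in that library. Comparisons of these genes with naive cells are therefore given with and without that library. The source of this difference between wells was not tested.

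**Figure D2:**
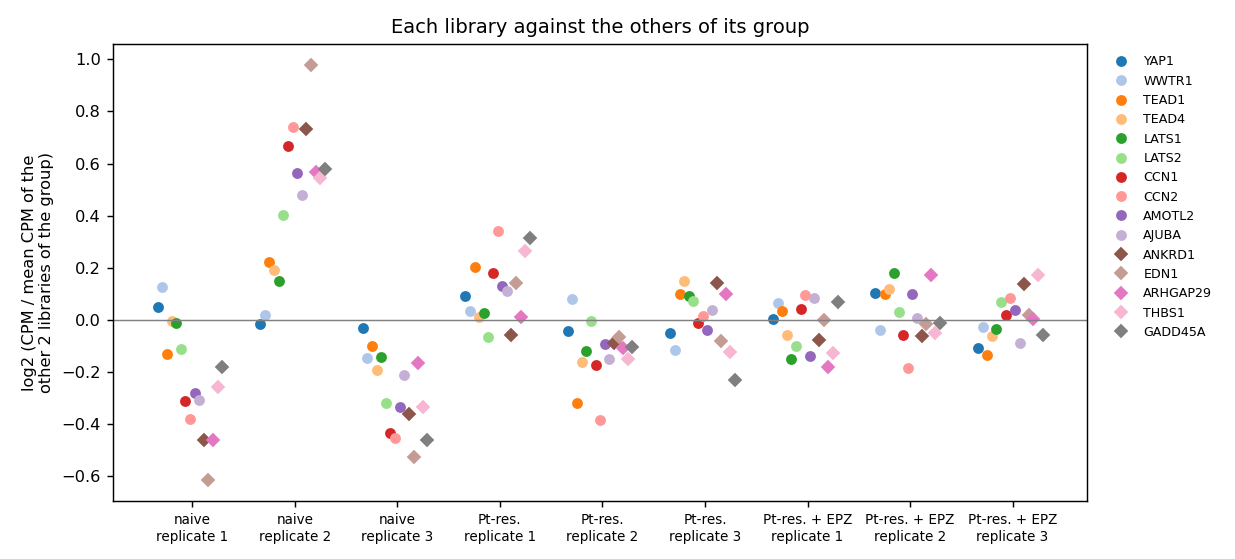
For each library on the x axis, the log2 ratio of a gene's CPM to the mean of the other 2 libraries of its group is shown, for the 10 genes (circles) and 5 further YAP targets (diamonds). Naive replicate 2 holds the highest points, with EDN1 (1.97-fold), CCN2 (1.67-fold), ANKRD1 (1.66-fold) and CCN1 (1.59-fold) above the rest, while YAP1 and WWTR1 stay near 0 there.

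Windows around transcription starts of the 10 genes and of other pathway and target genes were read for the hexamer GGAATG or its reverse complement CATTCC. That hexamer matches the core of the element that TEAD factors bind. Windows of 300 bases, from 250 before to 50 after a transcription start, came from RefSeq on GRCh38.p14 for 7 of the 10 genes, with 11 windows. CCN1, TEAD1 and TEAD4 had no window available and were not read. The hexamer was in 5 of the 11 windows (45.5%), beside 4928 of 35116 windows of all genes. The match in LATS2 lay after the start, and the windows of LATS1 and WWTR1 held no match. CCN2 held 3 copies, and 0.128% of all windows held 3 or more. The 250 bases upstream are shown 5′ to 3′ on the strand of the gene with the hexamer in capitals, for 4 genes that YAP controls or, as AJUBA, that act on the LATS kinases. With EPZ015666, ANKRD1 rose, AMOTL2 and AJUBA fell and CCN2 did not pass, so that they span the responses described below. AMOTL2 and AJUBA each had a further window without a match. Every window shown holds a match, which most windows of the wider target list do not. A match is a run of letters and no measured binding.
CCN2 (chr6:131951373-131951622, minus strand): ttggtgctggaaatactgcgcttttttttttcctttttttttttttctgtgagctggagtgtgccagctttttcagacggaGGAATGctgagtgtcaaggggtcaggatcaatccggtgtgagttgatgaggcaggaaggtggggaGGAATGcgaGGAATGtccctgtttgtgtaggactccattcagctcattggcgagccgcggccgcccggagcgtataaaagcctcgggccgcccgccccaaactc
AMOTL2 (chr3:134374448-134374697, minus strand): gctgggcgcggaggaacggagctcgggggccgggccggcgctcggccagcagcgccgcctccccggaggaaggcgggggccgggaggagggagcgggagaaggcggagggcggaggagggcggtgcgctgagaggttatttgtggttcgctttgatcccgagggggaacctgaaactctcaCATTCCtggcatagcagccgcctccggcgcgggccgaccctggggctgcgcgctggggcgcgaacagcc
AJUBA (chr14:22976843-22977092, minus strand): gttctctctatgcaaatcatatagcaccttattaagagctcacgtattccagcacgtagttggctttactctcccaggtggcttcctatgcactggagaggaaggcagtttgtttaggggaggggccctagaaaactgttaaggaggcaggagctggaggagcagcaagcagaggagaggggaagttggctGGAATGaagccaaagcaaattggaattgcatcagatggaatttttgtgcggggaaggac
ANKRD1 (chr10:90921088-90921337, minus strand): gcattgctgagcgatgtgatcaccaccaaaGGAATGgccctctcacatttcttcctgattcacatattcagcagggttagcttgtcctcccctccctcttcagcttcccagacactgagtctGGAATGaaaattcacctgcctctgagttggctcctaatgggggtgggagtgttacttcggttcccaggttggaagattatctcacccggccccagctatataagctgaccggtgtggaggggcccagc
The copies begin 169, 104 and 95 bases before the start in CCN2, 69 in AMOTL2, 59 in AJUBA, and 220 and 128 in ANKRD1.

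CCN1 and CCN2 encode secreted matricellular proteins that serve as common readouts of YAP activity. CCN1 stood at 1013, 1560.5 and 953 CPM in the naive, 1051, 894 and 964 CPM in the Pt-resistant and 1607, 1537 and 1590.5 CPM in the treated libraries. The naive and Pt-resistant libraries overlapped, and the treated libraries were above all Pt-resistant ones, with naive replicate 2 at their level. CCN1 rose 1.63-fold with EPZ015666 (log2 fold change 0.70 ± 0.12, adjusted p = 2.78e-05). It was the gene of highest level per kilobase among the 10, at 643 ± 14.9 CPM per kilobase in treated and 395 ± 32.1 in Pt-resistant cells.

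Between Pt-resistant and naive cells CCN1 differed by -0.28 ± 0.12, which did not pass (adjusted p = 0.0549; 95% interval -0.53 to -0.02). This value rested on naive replicate 2, without which it was -0.03 (adjusted p = 0.832). With naive replicate 2 kept, it passed at -0.37 without naive replicate 1, -0.41 without naive replicate 3 and -0.35 without Pt-resistant replicate 1, and with 3 settings of scaling or filter. Treated cells exceeded naive cells by 0.43 (adjusted p = 0.00409), by 0.68 without naive replicate 2, or with DESeq2 by 0.42 without passing (adjusted p = 0.0561).

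CCN2, the gene with 3 hexamers, stood at 95.7, 157 and 92.2 CPM in the naive, 109, 77.7 and 94.2 CPM in the Pt-resistant and 108, 94.8 and 107 CPM in the treated libraries. The 3 groups overlapped. No comparison passed, treated against naive cells included (-0.15, or 0.13 without naive replicate 2), with log2 fold changes of -0.30 (95% interval from -0.59 to just below 0) in Pt-resistant cells and 0.15 (95% interval -0.15 to 0.44) with EPZ015666. Without naive replicate 2 the first was -0.01, and it passed without naive replicate 1, naive replicate 3 or Pt-resistant replicate 1 (-0.41, -0.43 and -0.43). With EPZ015666 the interval of CCN1 began at 0.45 and that of CCN2 ended at 0.44, and the difference between both genes was not itself tested.

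AMOTL2 encodes an angiomotin family protein that binds YAP and retains it outside the nucleus, and it is itself a YAP target. It stood at 794, 1158 and 773 CPM in the naive, 663, 598 and 613 CPM in the Pt-resistant and 263, 295 and 286 CPM in the treated libraries. The groups did not overlap in any pair, in the order naive, Pt-resistant and treated. In Pt-resistant cells AMOTL2 fell by 0.54 ± 0.11 on the log2 scale (adjusted p = 1.76e-04) and by a further 1.15 ± 0.11 with EPZ015666 (2.22-fold, adjusted p = 4.54e-09). Without naive replicate 2 the first difference was -0.33 (adjusted p = 0.0016), and the difference between treated and naive cells was -1.48 in place of -1.69. By group means per kilobase, AMOTL2 ranked below CCN1 alone among the 10 genes in every group. It stood at 152 ± 36.1, 104 ± 5.67 and 47.0 ± 2.70 CPM per kilobase in naive, Pt-resistant and treated cells. CCN2 was close to it in treated cells, at 44.2 ± 3.18.

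AJUBA encodes a LIM protein that binds and inhibits the LATS kinases. It stood at 165, 236 and 174 CPM in the naive, 339.8, 301 and 329 CPM in the Pt-resistant and 225, 217 and 208 CPM in the treated libraries. The Pt-resistant libraries were above all others, and the treated libraries lay within the naive range. AJUBA rose 1.69-fold in Pt-resistant cells (log2 fold change 0.75 ± 0.10, adjusted p = 7.71e-07) and fell by 0.58 ± 0.10 with the inhibitor (1.49-fold, adjusted p = 2.48e-05). Treated and naive cells differed by 0.18, which did not pass (95% interval -0.03 to 0.38), but did without naive replicate 2 (0.35, adjusted p = 0.00105). Without that library the rise in Pt-resistant cells was 0.92.

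**Figure D3:**
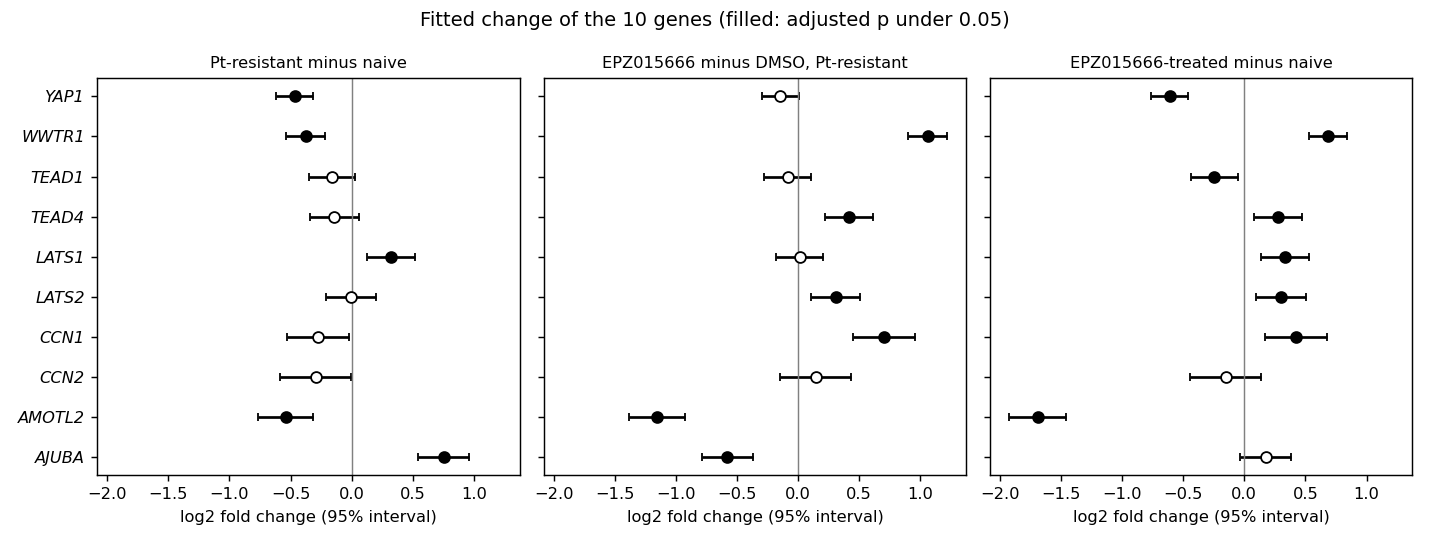
Log2 fold changes of the 10 genes with 95% intervals (x axis) in the 3 comparisons, filled where the adjusted p was under 0.05. With EPZ015666, WWTR1 (1.06) and CCN1 (0.70) lie to the right and AMOTL2 (-1.15) and AJUBA (-0.58) to the left of 0, while CCN2 spans 0.

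Across the 9 libraries, the gene whose centred log2 CPM profile lay nearest to CCN1 was SSH2, a cofilin phosphatase, with a root mean square difference of 0.101, followed by KLF9 (0.105) and the YAP target ANKRD1 (0.118), among 10604 genes of at least 5 CPM. Nearest to CCN2 were DTL (0.114), POLR1G (0.144) and C19orf47 (0.146), and nearest to YAP1 were APEH (0.0416), UBFD1 (0.0464) and EZH2 (0.0478). Among the 10 genes, LATS2 and TEAD4 had the most similar profiles (0.102), and AMOTL2 and WWTR1 the least similar (1.09). These are descriptions over libraries that share groups.

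A wider list of 25 genes known as YAP and TEAD targets was read in the same fit, and 24 were tested (INHBA was too low). This list was chosen with earlier results of these data known, so its counts and medians are descriptions and no test of the targets. Against naive cells, 8 were called higher and 10 lower in the Pt-resistant group, with a median log2 fold change of -0.07. Of those lower, ARHGEF17 (-0.19, adjusted p = 0.0492) lost its call under 9 of 17 alternatives. MYOF, called higher here (0.25) and with EPZ015666 (0.22), lost these calls under 2 and 5 of 17. With EPZ015666, 18 of the 24 rose and 4 fell, with a median of 0.61 beside 0.01 over all tested genes, and 8 of those that rose did so at least 2-fold. The groups did not overlap for 22 of the 24 in that comparison, beside 66.5% of all tested genes. Over the alternatives, the number that rose with the inhibitor was 17 or 18 and the number that fell 4 or 5. Between treated and naive cells 13 rose and 7 fell. The shares of all tested genes called higher and lower were 29.8% and 29.4% for resistance, 31.9% and 30.5% for EPZ015666, and 32.2% and 31.2% between treated and naive cells.

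TGM2, which encodes a protein-crosslinking transglutaminase, had the widest swing. It stood at 184, 152 and 175 CPM in the naive, 53.5, 47.3 and 54.4 CPM in the Pt-resistant and 644, 622 and 690.4 CPM in the treated libraries. The groups did not overlap, and TGM2 fell by 1.72 and then rose 12.6-fold with EPZ015666 (log2 fold change 3.66 ± 0.09, adjusted p = 4.63e-19). AXL, a receptor tyrosine kinase, rose in both steps, at 37.7 ± 1.30, 72.7 ± 7.26 and 231 ± 7.68 CPM in the 3 groups in that order (log2 fold changes 0.95 and 1.67).

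The matrix glycoprotein gene THBS1 stood at 50.1 ± 11.5 CPM before and 45.2 ± 4.93 CPM after selection with cisplatin, and rose to 128 ± 9.28 CPM with EPZ015666 (2.83-fold, adjusted p = 7.94e-11). The tissue factor gene F3 fell by 0.72 and then rose by 1.74 with the inhibitor, from 8.35 ± 0.668 to 27.8 ± 0.527 CPM. The growth factor gene TGFB2 rose by 1.35 from 3.44 ± 0.364 CPM. The largest falls in Pt-resistant cells were those of IGFBP3 (-2.72), EDN1 (-1.92), TGM2, FSTL1 (-1.05) and CCDC80 (-1.01). Each of these rose with EPZ015666, IGFBP3 by 1.03, EDN1 by 0.88, FSTL1 by 0.60 and CCDC80 by 1.04 on the log2 scale. CCDC80 thereby stood at 131 ± 11.2 CPM in the naive and 134 ± 3.63 CPM in the treated group, while IGFBP3 and EDN1 stayed below naive cells (log2 fold changes -1.68 and -1.04). EDN1 was 1.97-fold higher in naive replicate 2 than in the mean of the other naive libraries. Over the alternatives its fall in Pt-resistant cells ran from -2.10 to -1.53. The EDN1 difference between treated and naive cells ran from -1.22 to -0.64. Over all tested genes, 2254 of the 4294 called lower in Pt-resistant cells also rose with EPZ015666.

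The 4 targets that fell with EPZ015666 were FJX1, ARHGAP29 (-0.97), TNFRSF12A (-0.94) and GADD45A (-0.80). FJX1 had an adjusted p of 2.44e-07. ARHGAP29, a GTPase-activating protein gene, stood at 739, 1179.9 and 856 CPM in the naive, 1709.8, 1617 and 1779.7 CPM in the Pt-resistant and 797, 939 and 869.6 CPM in the treated libraries. The Pt-resistant libraries were above all others, and the other groups overlapped, an order shared with AJUBA. GADD45A and TNFRSF12A also rose in Pt-resistant cells (1.33 and 0.49), whereas FJX1 did not pass there (0.10, adjusted p = 0.487). GADD45A was 1.49-fold higher in naive replicate 2 than in the mean of the other naive libraries. Over the alternatives its rise in Pt-resistant cells ran from 1.19 to 1.54.

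ANKRD1, a cardiac ankyrin repeat protein gene widely used as a YAP readout, stood at 557, 949 and 585.5 CPM in the naive, 533, 525 and 583 CPM in the Pt-resistant and 786, 791 and 867 CPM in the treated libraries. Naive replicate 2 was above all other libraries. ANKRD1 rose with EPZ015666 by 0.57 (adjusted p = 4.57e-04). Its fall in Pt-resistant cells, -0.35 (adjusted p = 0.0226), was lost without naive replicate 2 (-0.07, adjusted p = 0.526), without Pt-resistant replicate 2 (adjusted p = 0.0562) and with DESeq2 (adjusted p = 0.154). Without naive replicate 2, the targets that fell in Pt-resistant cells numbered 8. Of the 24 targets, 9 (37.5%) were more than 1.2-fold above the other libraries of the group in naive replicate 2, and 7 (29.2%) in Pt-resistant replicate 1, beside 13.8% and 11.8% of all tested genes.

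**Figure D4:**
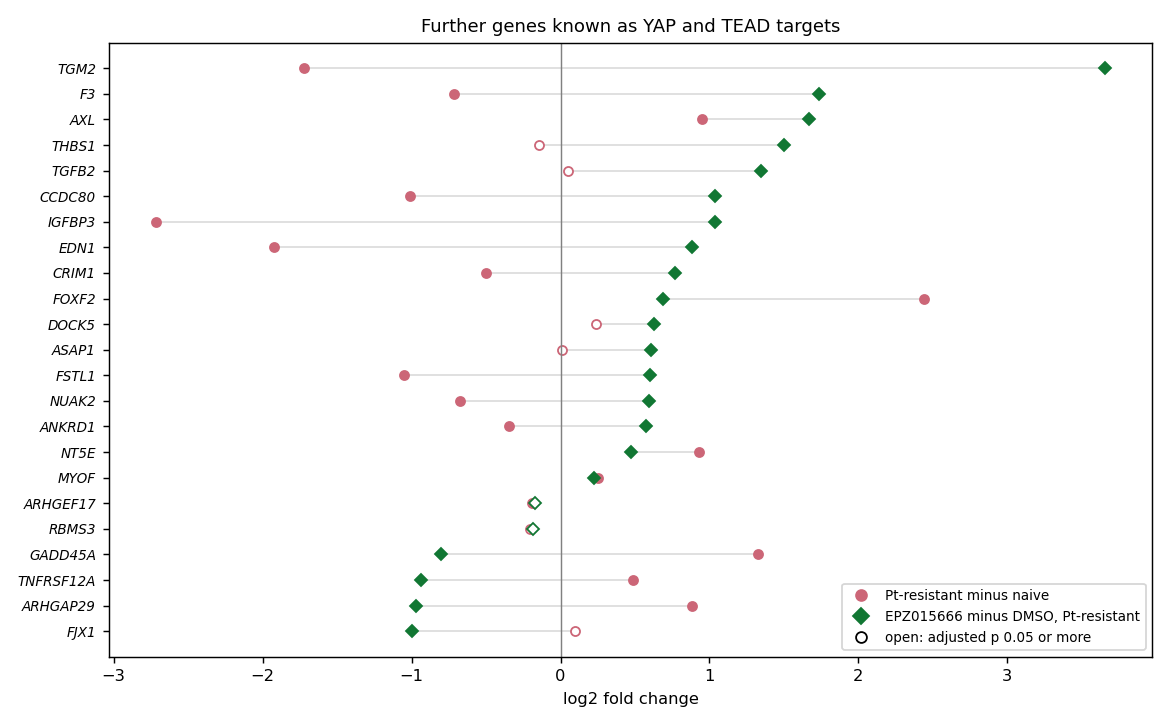
Log2 fold changes (x axis) of further tested YAP targets, ordered by their change with EPZ015666 (green diamonds), with the change in Pt-resistant against naive cells as red circles and open symbols where the adjusted p was 0.05 or more. Most filled diamonds lie to the right of 0, led by TGM2 at 3.66, and 4 lie to the left.

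Beyond the 10 genes and the targets, 43 further genes of the pathway were listed by role, and 42 were tested. In the Pt-resistant group 9 were called higher and 15 lower than in naive cells (median log2 fold change -0.11). With EPZ015666 17 rose and 10 fell (median 0.12), and between treated and naive cells 14 rose and 18 fell (median -0.06). These counts stand beside 59.1%, 62.4% and 63.4% of all tested genes called in either direction, shares near which those of the list lay in the first and second comparison, and the counts by role that follow are descriptions beside the same shares.

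Among 14 upstream scaffolds and kinases, 2 were called higher and 5 lower in Pt-resistant than naive cells, and 7 higher and 1 lower with the inhibitor. WWC1, which encodes the scaffold KIBRA, fell from 339 ± 18.8 to 257 ± 11.3 CPM and then rose to 427 ± 18.4 CPM (log2 fold changes -0.40 and 0.73). NF2, the gene of the membrane scaffold Merlin, rose in both steps, at 56.8 to 69.6 CPM in the naive, 73.4 to 93.5 CPM in the Pt-resistant and 112 to 119 CPM in the treated libraries (0.36 and 0.51). FRMD6 (0.81), MOB1B (0.63), SAV1 (0.60), TAOK2 (0.51) and MAP4K4 (0.22) also rose with EPZ015666, the last without passing when Pt-resistant replicate 3 or treated replicate 2 was left out. WWC3 fell by 0.73 there. The kinase gene TAOK1 fell in Pt-resistant cells (-0.52) and did not pass with the inhibitor (0.10). The kinase genes STK3 and STK4, which encode MST2 and MST1, passed in neither step (STK3 0.07 and -0.11, STK4 -0.10 and -0.14).

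Of 6 genes for proteins that bind YAP or inhibit LATS, 2 rose and 2 fell in each step. AMOTL1, an angiomotin like AMOTL2, fell from 138 ± 12.7 to 82.2 ± 6.66 CPM and then rose to 117 ± 15.7 CPM with EPZ015666 (log2 fold changes -0.74 and 0.51). With the inhibitor AMOTL1 and AMOTL2 thus passed in opposite directions. TP53BP2, which encodes ASPP2, a protein that binds YAP, rose from 86.8 ± 13.3 to 158 ± 14.5 CPM and fell to 102 ± 8.30 CPM (0.86 and -0.62). The AJUBA paralogs LIMD1 and WTIP passed in 1 step each, WTIP falling in Pt-resistant cells (-0.42) and LIMD1 with the inhibitor (-0.40).

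Among 9 tested genes for atypical cadherins, polarity proteins and RASSF1, a scaffold that binds the MST kinases, 2 were called higher and 3 lower in the Pt-resistant group, and 4 in each direction with EPZ015666. One of the 4 that fell, SCRIB (-0.18, adjusted p = 0.0484), lost its call under 10 of 17 alternatives. The polarity gene LLGL1 fell in Pt-resistant cells (-0.70). FAT1, an atypical cadherin gene, went from 13.7 ± 1.51 to 9.19 ± 1.34 and 13.9 ± 2.01 CPM (log2 fold changes -0.58 and 0.59). RASSF1 rose by 0.63 and fell by 1.04 on the log2 scale, the largest fall of the list with the inhibitor, and the polarity gene CRB3 fell in both steps (-0.43 and -0.59). In the STRIPAK phosphatase complex, which opposes the upstream kinases, STRN4 rose (0.19) and SLMAP fell (-0.22) in Pt-resistant cells, and STRN3 rose (0.19) with the inhibitor. Both the STRN4 and the STRN3 call were lost with scaling by library size alone, with no filter on low counts and without some single libraries, and the STRN4 call also in a fit of only the 2 groups compared. Of 5 TEAD and TEAD cofactor genes, 4 were called lower and none higher in Pt-resistant than naive cells, and 3 were called higher and 1 lower with EPZ015666. The one that fell, VGLL4, encodes a cofactor that competes with YAP for TEAD, at 112 ± 12.1, 95.7 ± 0.679 and 70.4 ± 1.45 CPM (-0.23 and -0.44). Its first step was lost without naive replicate 1 or naive replicate 3. Of the 3 genes of YAP degradation, CSNK1D and CSNK1E rose in Pt-resistant cells (0.29 and 0.31), and CSNK1D fell with EPZ015666 (-0.36).

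**Figure D5:**
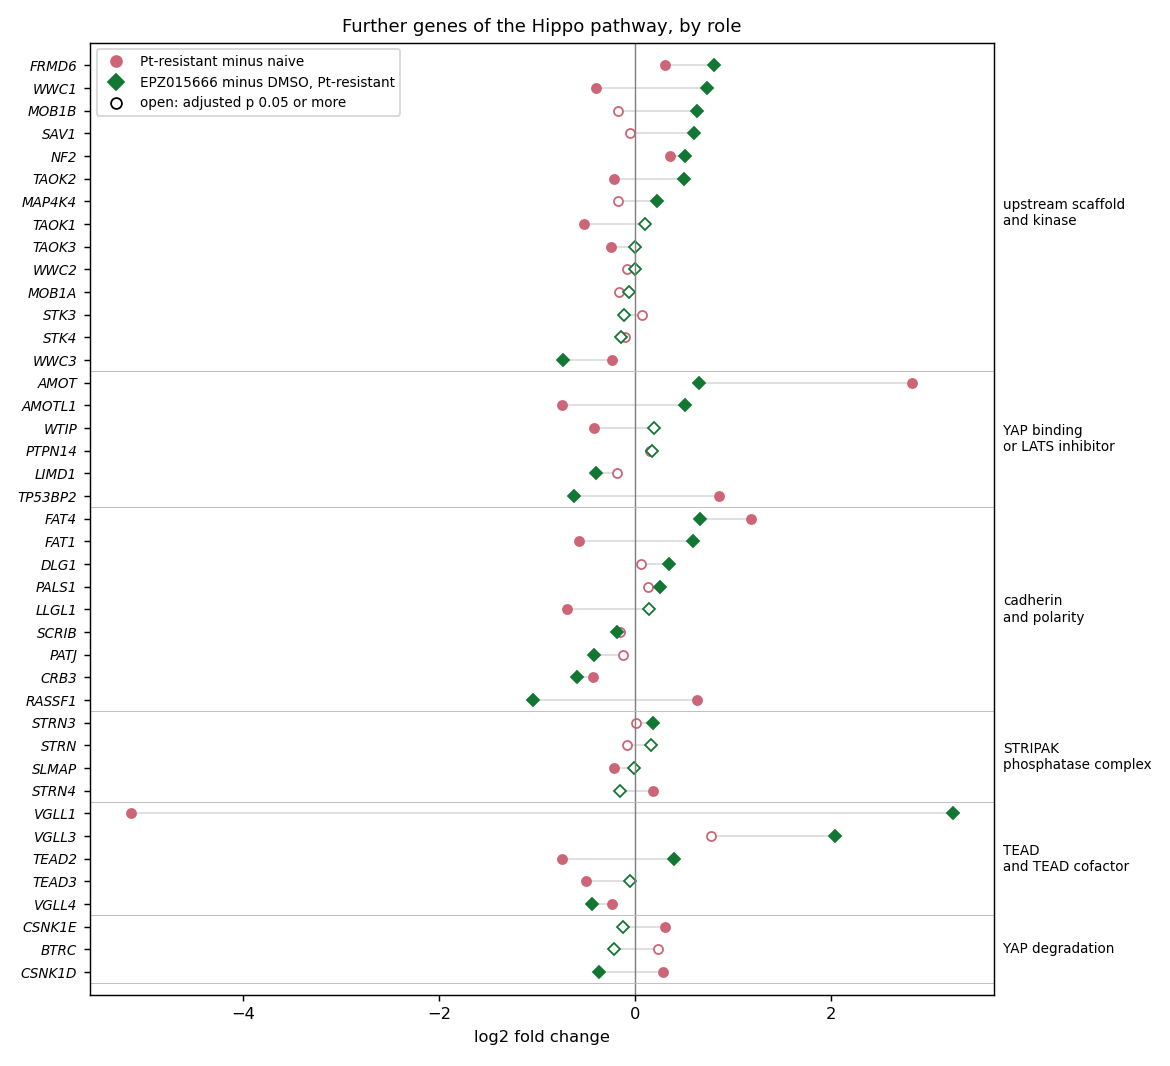
Log2 fold changes (x axis) of further tested Hippo pathway genes, grouped by role, for Pt-resistant against naive cells (red circles) and EPZ015666 against DMSO (green diamonds), open where the adjusted p was 0.05 or more. In the top group 7 diamonds are called to the right and 1 to the left of 0, and the far points of VGLL1 rest on 1 to 3 counts in each Pt-resistant library.

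Exons of some of the 10 genes overlap other genes in GENCODE 29, which bears on how reads were assigned. An antisense gene covers 9.98% of the exon bases of YAP1, 9.45% of WWTR1, 8.34% of CCN2 and 4.72% of LATS1, and these antisense genes held 9 to 85 counts each over all 9 libraries. The strand column deposited is unstated, so whether reads in these overlaps were assigned by strand or left out is not known. A pseudogene on the same strand covers 3.13% of AMOTL2, and AL132780.3 covers 0.836% of AJUBA. TEAD1, TEAD4, LATS2 and CCN1 had no such overlap.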

How the data were processed

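The 10 genes and all gene lists were chosen with earlier results of these data known. Per the study's methods, RNA was extracted from wells, libraries were made with a directional kit, and the authors aligned reads with STAR in its gene counting mode after FastQC. The deposited values are raw counts per gene, not normalised. STAR leaves out reads that overlap more than 1 gene or map to several places. The genome build, annotation and strand column of the table were unstated (not given in the sources used here). Symbols matched 61369 identifiers by a symbol table and 105 by GENCODE 29, which also gave exon lengths. edgeR 4.0.16 (R 4.3.3) gave 1 quasi-likelihood fit over the 9 libraries, with filterByExpr (minimum count 10), TMM scaling and Benjamini-Hochberg adjustment over all 14630 genes kept, which held 99.88% of counts. The biological coefficient of variation was 7.66%. A standard error is the log2 fold change divided by the root of F. Within-group pairs of libraries differed by more than counting noise (chi-square per degree of freedom 5.41 to 11.9). Any list gene could be named, with preference to those past the threshold with the largest change (up to 6 per list, direction and comparison) and those of 50 CPM or more. Alternatives were RLE or library-size scaling, DESeq2 1.42.0, limma-voom (limma 3.58.1), other count filters, fits on 2 groups, a replicate block and leaving out each library. The fit was tested on simulated data. Some list genes are counted but not reported here by name, in text or figures. The sums and ratios of paralogs were chosen after the data were seen.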

Additional observations from a re-analysis of the deposited data

How the results depend on the processing

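Of the alternative values for summary counts, 403 stayed within 1.5 times the main value and 5 moved. The number of the 10 genes that fell in Pt-resistant cells was 3 and became 5 with no filter on low counts and 3 to 6 when single libraries were left out. It was 5 without naive replicate 1, 5 without naive replicate 3 and 6 without Pt-resistant replicate 1, where CCN1 and CCN2 passed, and TEAD1 too in the last. The number that rose in treated against naive cells was 5 and ranged from 3 to 6 when single libraries were left out, with 3 without naive replicate 3. The causes were not tested. For single genes among the 10, 483 values kept direction and call, 13 newly passed and 7 no longer passed. A further 7 turned sign, none of them past the threshold in either fit. LATS1 with EPZ015666 (main 0.02) was at -0.0189 with scaling by library size alone and at -0.0457 to 0.0666 when single libraries were left out, negative without Pt-resistant or treated replicate 2. LATS2 in Pt-resistant cells (main -0.01) was at 0.00914 with limma-voom and at -0.105 to 0.130 when single libraries were left out, positive without naive replicate 2 or Pt-resistant replicate 1. CCN2 in treated against naive cells (main -0.15) was at -0.290 to 0.133 when single libraries were left out, positive without naive replicate 2. Scaling moved the median of all genes by at most 0.06 on the log2 scale.

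The replicate number as a block gave 4389 genes up and 4299 down in Pt-resistant cells (main 4357 and 4294), 4677 and 4508 with EPZ015666 (4669 and 4467), and 4730 and 4589 for treated against naive cells (4710 and 4566). It changed no call among the 10 genes. Same-numbered libraries had correlations of their deviations from the group means of -0.0758 to 0.0995. Libraries with different numbers had -0.112 to 0.0785. These values show no clear pairing by number and cannot exclude it. At 14320929 counts or more per library, the genes at a few CPM are the least certain.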

Other observations

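Several pathway genes and a target, each at a few CPM or less in at least 1 group, moved by large factors. VGLL1, a TEAD cofactor gene, had 73, 68 and 58 counts in naive, 2, 3 and 1 in Pt-resistant and 22, 16 and 16 in treated libraries, so all Pt-resistant libraries were at or under the floor of 3 counts. Its calls passed in both steps (adjusted p = 3.31e-11 and 2.33e-06), and the fitted folds depend on so few counts that none is given. AMOT, the founding angiomotin gene, rose from 0.425 ± 0.134 to 3.03 ± 0.668 CPM in Pt-resistant cells and to 4.72 ± 0.719 CPM with EPZ015666 (log2 fold changes 2.83 and 0.65), the second call being lost without Pt-resistant replicate 2 (adjusted p = 0.056). VGLL3 rose with the inhibitor from 0.868 ± 0.198 to 3.58 ± 0.717 CPM (2.04). The cadherin gene FAT4 rose in both steps, at 1.81 ± 0.117, 4.11 ± 0.621 and 6.55 ± 0.884 CPM (1.18 and 0.66), and the target FOXF2 likewise, at 1.54 ± 0.35, 8.40 ± 1.21 and 13.5 ± 1.24 CPM (2.44 and 0.69). DCHS1, a cadherin gene, was too low to test, with 4 or 5 counts in each naive library and 0 in each Pt-resistant library.

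The other CCN family genes stood at a few CPM. CCN3 fell in Pt-resistant cells by 1.04 on the log2 scale, from 2.67 ± 0.677 CPM. CCN5 fell by 0.69 and rose by 0.72 with EPZ015666, and CCN6 rose by 0.62 in Pt-resistant cells. The first CCN5 call was lost without naive replicate 1, naive replicate 3 or Pt-resistant replicate 1, the second without Pt-resistant replicate 1, and that of CCN6 without naive replicate 1 or Pt-resistant replicate 3. CCN4 was too low to test.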
